A study of Mus musculus with 2 samples.

Results

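The 40 genes described here encode proteins that act at set points of the cell division cycle, and their RNA was read in single GFP+ cells of mouse hind limb muscle 7 days after sciatic nerve crush, to see which lineages of the injured muscle divide and in which phase. The genes were listed by name, with earlier results of these data known, and all 40 were found among the 32287 features of the count matrix. They comprise 12 genes of DNA replication and S phase, 21 genes of G2 phase and mitosis (G2/M), 3 D-type cyclins and 4 inhibitors of cyclin-dependent kinases (CDKs). The muscles (tibialis anterior and gastrocnemius) came from male S100GFPtg mice aged 2 months, titled wild type, with the crush as the only treatment named. In these mice the S100B promoter drives green fluorescent protein, which is meant to label Schwann cells, although most of the sorted cells carried markers of other lineages. From the viable GFP+ cells 1 library of 3' tags in droplets was made. Whether it holds 1 animal or several is uncertain, since the labels and the study's methods differ on this. Counts of the GFP- cells and of uninjured muscle were not analysed here, so every comparison below is between classes of cells within 1 library, with no replicate, no test and no p-value, and nothing can be said of what the crush changed.

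A cell enters the cycle when D-type cyclins activate CDK4 and CDK6, which releases E2F transcription factors from the retinoblastoma protein. E2F then switches on the genes of replication licensing, nucleotide supply and cyclin E, and later the mitotic genes rise together under complexes that bind the CHR promoter element. CDK inhibitors oppose these kinases at each step. After nerve crush, Schwann cells, macrophages, fibroblasts of the nerve and muscle, and satellite cells, the stem cells of muscle, are all known to be able to divide.

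Promoters are shown because the S and the G2/M members differ in the short words found just before their start. Of the 40 members, 32 had a promoter in the RefSeq table of GRCm38.p6, each with 250 bases before the start and 50 after it, and Aurkb, Ccna2, Ccnd1, Ccnd2, Ccne2, Cdkn1c, Gins2 and Tpx2 were not matched. The CHR word was searched as TTTGAA or TTCGAA, of which the second is its own reverse complement, and the E2F word as TTTGGCGC, TTTCGCGC, TTTCCCGC or TTTGCCGC, on both strands, where 2 E2F words can share bases. A CHR word was found in 14 of the 18 matched G2/M members and in 1 of the 10 matched S members (Mcm2), compared with 21.7% of the 27025 genes of the table. An E2F word was found in 4 of the 10 S members and 1 of the 18 G2/M members, compared with 2.61% of all genes. CCAAT, an element often found beside CHR, was in 16 of 18 G2/M and 8 of 10 S members and in 41.1% of all genes. The 160 bases before the start follow for 6 G2/M members, with the CHR word in capitals, and for 2 S members, with the E2F words in capitals. A match is a description of the letters, not a site shown to be bound. The stretches lie at chr7:135716380-135716539 (Mki67, minus strand), chr10:69352913-69353072 (Cdk1, minus), chr19:37376222-37376381 (Kif11, plus), chr4:118437344-118437503 (Cdc20, minus), chr2:164769769-164769928 (Ube2c, plus), chr7:80294316-80294475 (Prc1, plus), chr8:75109349-75109508 (Mcm5, plus) and chr1:128359706-128359865 (Mcm6, minus), each written 5' to 3' on the gene's strand.
Mki67: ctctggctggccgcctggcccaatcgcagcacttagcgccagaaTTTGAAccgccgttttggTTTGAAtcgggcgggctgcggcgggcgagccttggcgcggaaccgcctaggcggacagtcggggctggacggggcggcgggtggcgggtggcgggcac
Cdk1: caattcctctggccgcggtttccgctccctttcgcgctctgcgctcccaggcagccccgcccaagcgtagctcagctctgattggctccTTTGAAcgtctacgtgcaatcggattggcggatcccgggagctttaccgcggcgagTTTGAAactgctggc
Kif11: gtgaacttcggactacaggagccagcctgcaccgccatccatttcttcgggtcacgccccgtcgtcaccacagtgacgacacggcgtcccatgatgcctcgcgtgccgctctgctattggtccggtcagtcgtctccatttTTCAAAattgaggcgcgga
Cdc20: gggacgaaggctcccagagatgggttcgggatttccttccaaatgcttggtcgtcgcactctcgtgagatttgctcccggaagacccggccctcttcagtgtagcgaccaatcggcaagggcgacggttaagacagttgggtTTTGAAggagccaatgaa
Ube2c: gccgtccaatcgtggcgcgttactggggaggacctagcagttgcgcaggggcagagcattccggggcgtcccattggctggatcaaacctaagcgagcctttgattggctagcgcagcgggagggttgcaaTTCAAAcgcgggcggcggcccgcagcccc
Prc1: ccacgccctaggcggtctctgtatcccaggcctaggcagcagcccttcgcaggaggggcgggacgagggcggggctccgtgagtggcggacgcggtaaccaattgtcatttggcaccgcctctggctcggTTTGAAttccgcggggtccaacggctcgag
Mcm5: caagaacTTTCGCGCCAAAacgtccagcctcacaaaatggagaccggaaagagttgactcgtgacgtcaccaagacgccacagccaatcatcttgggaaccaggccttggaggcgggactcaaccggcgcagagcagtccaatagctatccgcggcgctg
Mcm6: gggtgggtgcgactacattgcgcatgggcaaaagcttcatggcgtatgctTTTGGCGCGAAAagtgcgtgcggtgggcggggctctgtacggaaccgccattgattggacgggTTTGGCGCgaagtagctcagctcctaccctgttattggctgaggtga

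Of the 36400 barcodes of the library, 8894 held at least 5000 UMIs and 8701 of these also passed the filters on genes and mitochondrial counts, with a median of 11624 UMIs. A cell was put in a lineage when UMIs of at least 3 of that lineage's markers reached a fixed level and no other lineage's gate was passed. This gave 6068 myeloid cells (median 11435 UMIs), 1683 stromal cells, that is fibroblasts and tenocytes (14449), 252 satellite cells (9050), 78 Schwann cells (8562) and 39 endothelial cells (6765). In every pairwise comparison all 10 myeloid, 12 stromal, 10 Schwann and 11 endothelial markers were higher in their own lineage than in the other 4, but these markers made the gates. Of the 10 satellite markers 8 were, and the other 2, Myog and Mymk, which are switched on as myoblasts differentiate and fuse, had no UMI in satellite cells. The 456 cells that passed several gates were left out, as were 57 that passed none. Of the library's barcodes 372 (1.02%) also occur in the GFP- library, 84 of them among the 8701 cells. Some stromal markers were also read in other classes. They summed to 549 CPM (UMIs for each 1000000 UMIs of the class) in Schwann cells, 683 in satellite cells and 54.7 in myeloid cells, against 10574 in stromal cells. The sums were uneven over the 12 markers. Dpt gave 366 CPM, Fbn1 106 and Serpinf1 90.6 CPM in satellite cells, and Dpt and Col5a1 170 CPM each in Schwann cells, while Fmod was at 6.53 and 2.64 CPM and Pdgfra at 1.54 and 1.32 CPM.

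Phase marks were read from single cells. Each cell was thinned at random to 5000 UMIs, which left no cell out, and was called S marked or G2/M marked when it held at least 6 UMIs from at least 4 genes of the 12 S or the 21 G2/M members. Among the 3 large lineages satellite cells had the highest share of G2/M-marked cells, at 3.17% (8 of 252, 95% interval 1.38 to 6.16%). Their share was 6.25% among cells with at least 10000 UMIs and 2.07% without the highest Scrublet scores, where myeloid cells had 1.62%. Myeloid cells followed at 1.99% (121 of 6068, 1.66 to 2.38%). Stromal cells had the lowest share among the 3 large lineages, at 0.594% (10 of 1683, 0.285 to 1.09%). The intervals, exact binomial here and exact Poisson for CPM, cover counting error only, and those of myeloid and stromal cells do not overlap, while the satellite interval overlaps the myeloid one. No Schwann cell was marked in either phase (0 of 78 cells, which allows a share of up to 3.85% by the limit of 3 counts and 4.62% by the exact two-sided interval), and 1 of 39 endothelial cells was G2/M marked (2.56%, 0.0649 to 13.5%). At 78 cells, a Schwann share as high as that of satellite or myeloid cells could not be told from 0. With 1 marked cell of 39, the endothelial share could not be ranked against the other lineages.

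The shares of S-marked cells had the same order, with 3.17% in satellite cells (8 of 252, 1.38 to 6.16%, and from 0.397% with thinning to 2000 UMIs to 7.29% with at least 10000 UMIs), 1.83% in myeloid cells (111 of 6068, 1.51 to 2.20%) and 0.713% in stromal cells (12 of 1683, 0.369 to 1.24%). Thinning to 2000 UMIs lowered the myeloid and stromal S shares as well, below the intervals given here. Muscle fibre barcodes, which hold nuclei that do not divide, served as a background. None of 22 was marked, which allows a share of up to 13.6% by the limit of 3 counts (15.4% by the exact interval), and none held more than 2 G2/M UMIs after thinning, at a median depth of 11051 UMIs. Of 36 mural cells (pericytes and smooth muscle, median 10488.5 UMIs) none was G2/M marked, and 1 was S marked (2.78%), a cell with 5 Rrm1 and 5 Pcna UMIs and no G2/M UMI. Without thinning the G2/M shares were 4.37% in satellite, 3.10% in myeloid and 0.891% in stromal cells, and the S shares 5.16%, 6.05% and 3.09%, so the order of satellite and myeloid cells in S marks turned with depth. Marked cells were deeper than unmarked ones, with a median of 19863 against 11349 UMIs in myeloid, 21350.5 against 14432 in stromal and 19070 against 9014 in satellite cells.

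Among marked cells all phases were present in each of the 3 lineages. The 177 marked myeloid cells divided into 56 with the S mark only, 55 with both marks and 66 with the G2/M mark only. The 12 marked satellite cells were spread evenly, 4 in each of these groups, and the 16 marked stromal cells were 6, 6 and 4. The share of marked cells that carried the G2/M mark alone was 37.3% in myeloid cells (30.1 to 44.9%), 33.3% in satellite cells (9.92 to 65.1%) and 4 of 16 in stromal cells (7.27 to 52.4%), intervals that overlap, so no lineage was shown to favour a phase. Of all 206 marked cells in the 5 lineages 85.9% were myeloid, and myeloid cells were 74.7% of the 8120 cells. A further 15 of the 456 cells in several gates and 7 of the 57 in none were marked, and these belong to no lineage here.

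**Figure D1:**
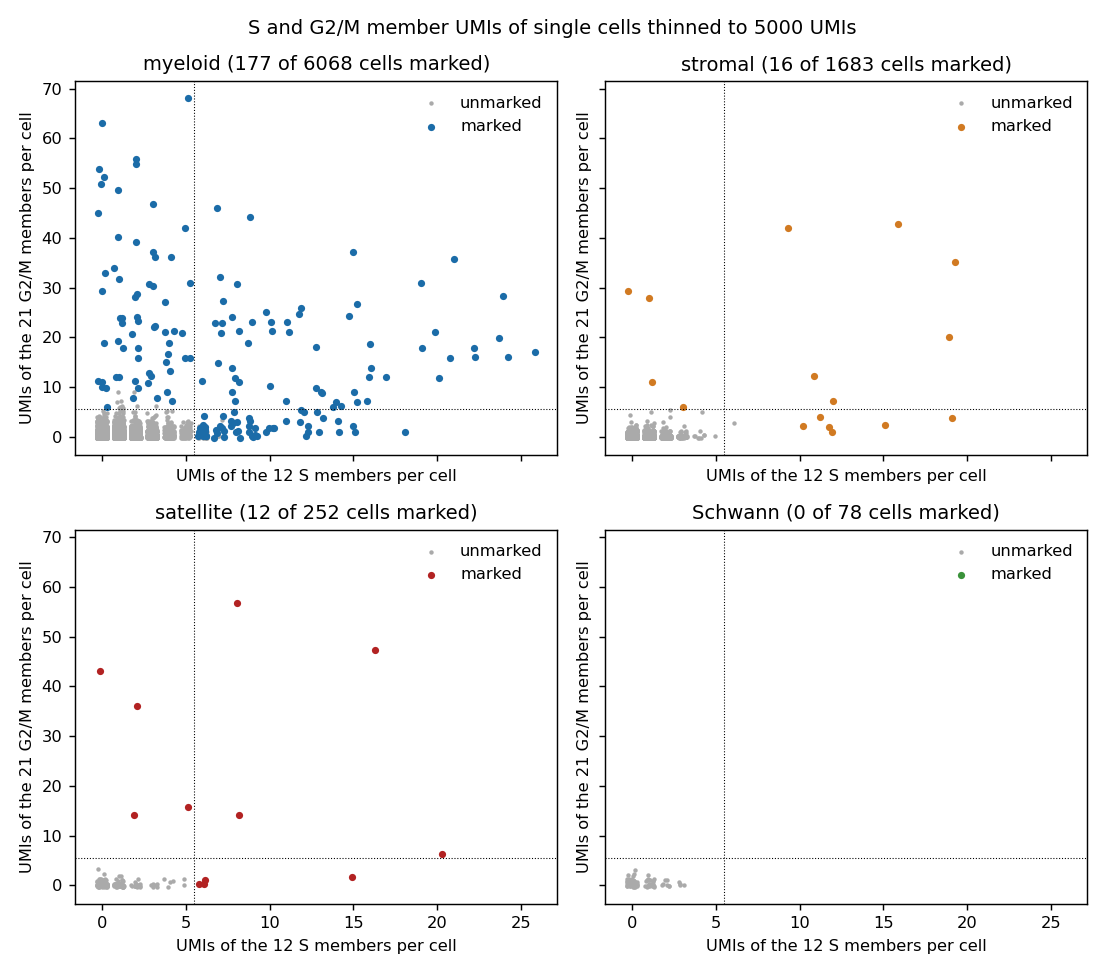
Each point is 1 cell, placed by its UMIs of the 12 S members (horizontal axis) and of the 21 G2/M members (vertical axis) after thinning to 5000 UMIs, with a small random shift so that equal counts do not hide each other. Dotted lines show the 6 UMIs needed for a mark (which also needs 4 genes), and marked cells form an arc from S only through both to G2/M only in myeloid cells (177 marked), while the 78 Schwann cells stay at or under 3 UMIs on both axes.

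**Figure D2:**
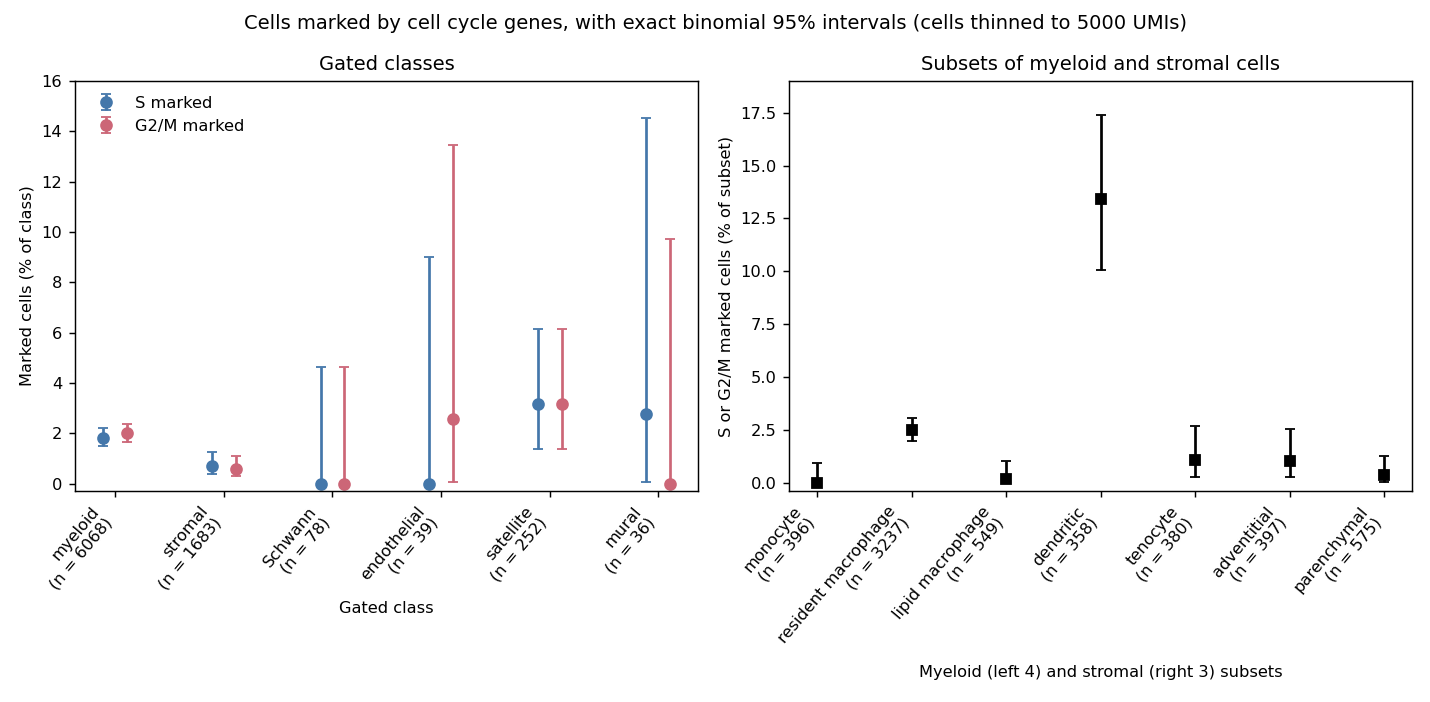
Shares of marked cells in percent with exact binomial 95% intervals, on the left for S and G2/M marks in each gated class and on the right for either mark in subsets of myeloid and stromal cells. Dendritic-like cells (13.4% of 358) stand above every other subset, and the intervals of the Schwann, endothelial and mural classes are wide because these classes hold 78, 39 and 36 cells.

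Cells near the cut of the G2/M mark were few beside all cells, but in myeloid and stromal cells not few beside the marked ones. Of myeloid cells 63.5% held no G2/M UMI after thinning, 53 held 4 or 5, 17 held 6 or 7 and 83 held 15 or more, up to 68, with 121 marked. In stromal cells 7 held 4 or 5 and 2 held 6 or 7, with 10 marked. In satellite cells 84.1% held none and no cell held 4 or 5, and 5 of the 8 G2/M-marked cells held 15 or more. The S sum separated cells less well in the myeloid lineage, where 271 cells held 4 or 5 S UMIs and 54 held 6 or 7. Over 20 other random draws of the thinning, G2/M-marked cells numbered 116 to 126 in myeloid, 8 to 11 in stromal and 7 to 9 in satellite cells, S-marked cells 94 to 121, 11 to 14 and 5 to 10, and Schwann cells were at 0 in every draw.

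Marked and unmarked cells were also compared on a doublet score and on the markers of other lineages. Of the 16 marked stromal cells, 10 (62.5%) were among the highest Scrublet scores, against 9.72% of unmarked stromal cells. For myeloid cells these shares were 25.4% and 11.1%, and 3 of the 12 marked satellite cells had such scores, against 3.33% of unmarked ones. Without the cells of those scores the stromal G2/M share was 0.132%, the stromal S share 0.331% and the summed G2/M level of stromal cells 32.2 CPM in place of 71.4 CPM. In marked and unmarked stromal cells the 10 myeloid markers summed to 94.9 and 127 CPM, 8 and 10 of them were detected, the median cell had 0.519 and 0.396 UMIs of them for each 10000, and 12 of 16 and 869 of 1667 cells held any. Marked stromal cells held 269 CPM of the satellite markers against 69.5 CPM (4 and 10 of 10 markers detected, 0 to 18.0 UMIs for each 10000 in marked cells) and 64.3 CPM of the Schwann markers against 17.2 CPM. The part of doublets in the stromal marks was not tested.

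The S members begin with the helicase that opens DNA. Mcm2, Mcm3, Mcm5 and Mcm6 encode subunits of the MCM helicase loaded at origins. Mcm3 was at 21.3 CPM in myeloid cells (20.3 to 22.4), 20.7 in satellite (15.6 to 27.1), 11.1 in endothelial (3.02 to 28.4) and 6.64 in stromal cells (5.68 to 7.72), and had no UMI in Schwann cells. The 2 upper lineages did not differ beyond counting error, and both stood above stromal cells. Mcm5 was at 11.5 CPM in satellite, 9.97 in myeloid, 3.46 in stromal and 2.77 in endothelial cells and also had no UMI in Schwann cells, and Mcm2 was at 8.83, 7.53, 2.79 and 5.55 CPM in these lineages with 1 Schwann UMI. Mcm6 varied least, from 8.32 CPM in endothelial to 19.6 CPM in satellite cells, with 11.9 CPM in Schwann cells. Gins2, a part of the active replication helicase, lay between 2.77 CPM in endothelial and 13.2 CPM in Schwann cells (10 UMIs), with 9.90 in myeloid, 7.00 in stromal and 12.7 in satellite cells.

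Genes of the replication fork and of nucleotide supply differed in how widely they were read. Pclaf, a partner of the sliding clamp, was at 18.4 CPM in myeloid (17.5 to 19.4), 31.5 in satellite, 4.72 in stromal and 2.77 in endothelial cells (1 UMI) and had no UMI in Schwann or mural cells. As 1 of the genes that make the S mark it is bound to gather in marked cells, which held 93.4% of its UMIs in myeloid, 90.8% in stromal and all 82 in satellite cells. Pcna, the sliding clamp itself, was present in every class, at 169 CPM in myeloid, 111 in endothelial, 108 in satellite, 71.3 in Schwann and 70.7 in stromal cells, and marked cells held only 11.1% of it in myeloid cells. The log2 ratio of Pcna between myeloid and stromal cells was 1.26 (1.18 to 1.33). Rrm1, the large subunit of ribonucleotide reductase, was likewise broad, at 29.6 CPM in satellite, 25.6 in stromal, 18.5 in Schwann, 18.1 in myeloid and 5.55 in endothelial cells, and it reached 224 CPM (178 to 277) in mural cells, of which 47.2% held it after thinning. The inducible subunit Rrm2 was narrower, at 27.3 CPM in satellite (21.3 to 34.4), 4.97 in myeloid and 3.54 in stromal cells, with 1 Schwann UMI and no endothelial one. Tyms, thymidylate synthase, was at 49.9 CPM in endothelial cells (18 UMIs in 39 cells), 28.8 in satellite, 14.5 in Schwann, 14.0 in stromal and 8.33 in myeloid cells.

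Ccne1 and Ccne2, the E cyclins that drive entry into S phase, were low throughout. Ccne1 was at 7.68 CPM in satellite (4.69 to 11.9), 3.97 in stromal, 2.88 in myeloid and 2.64 in Schwann cells (2 UMIs), with no endothelial UMI. Ccne2 lay between 2.06 CPM in myeloid and 6.60 CPM in Schwann cells (5 UMIs). Summed over the 12 S members, satellite cells had 311 CPM, myeloid 289, endothelial 205, stromal 158 and Schwann cells 141 (116 to 171). Mural cells, with 328 CPM, were the highest, and 224 of these were Rrm1.

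Among the G2/M members, Mki67, which encodes the proliferation antigen Ki-67, and Top2a, the topoisomerase that untangles chromosomes, had different orders. Mki67 was at 52.3 CPM in myeloid cells (50.7 to 54.0), 38.0 in satellite (30.9 to 46.3), 11.1 in endothelial (3.02 to 28.4), 5.70 in stromal (4.81 to 6.71) and 3.96 in Schwann cells (0.817 to 11.6, 3 UMIs in 3 cells). Top2a was highest in satellite cells, at 71.1 CPM (61.2 to 82.1), with 32.7 in myeloid, 8.81 in stromal, 2.77 in endothelial and 2.64 in Schwann cells (2 UMIs). Myeloid cells were above satellite cells in Mki67 by 0.46 on the log2 scale (0.17 to 0.76) and below them in Top2a, by a log2 ratio of -1.12 (-1.33 to -0.90). After thinning, an Mki67 UMI was found in 12.1% of myeloid, 3.17% of satellite, 2.56% of Schwann and 1.13% of stromal cells and in none of 36 mural cells, and the unthinned shares were 21.6%, 5.16%, 3.85%, 2.61% and 0.

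Most kinases and cyclins of mitosis were highest in satellite cells, with Ccnb2 and Aurka as the exceptions. Cdk1, the mitotic kinase, was at 36.9 CPM in satellite, 11.5 in myeloid, 3.62 in stromal and 2.77 in endothelial cells, with no Schwann UMI. Its partners Ccnb1, Ccnb2 and Ccna2 were at 8.45, 20.0 and 14.6 CPM in satellite cells, at 2.88, 10.5 and 4.54 CPM in myeloid cells and at 0.747, 5.90 and 1.77 CPM in stromal cells. Of these only Ccnb2 had Schwann UMIs (3), and its 36.1 CPM in endothelial cells came from 1 cell with 13 UMIs. Aurka, Aurkb and Plk1, kinases of the centrosome, the inner centromere and mitotic entry, were low everywhere, with at most 9.99 CPM (Aurkb in satellite cells). Aurka was at 3.96 CPM in Schwann (3 UMIs), 3.84 in satellite, 3.34 in myeloid and 0.668 in stromal cells, and the first 3 did not differ beyond counting error. Bub1, a kinase of the spindle checkpoint, was at 9.22 CPM in satellite, 2.49 in myeloid and 0.786 in stromal cells. None of Ccnb1, Ccna2, Bub1 and Plk1 had a Schwann UMI.

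Genes of the spindle and of mitotic exit followed the same order. Kif11, a spindle motor, was at 11.1 CPM in satellite, 6.21 in myeloid and 1.45 in stromal cells, and Tpx2, which activates Aurora A on the spindle, at 20.0, 7.83 and 4.17. Nusap1 and Hmmr, which bind spindle microtubules, were at 17.3 and 16.1 CPM in satellite, 10.5 and 5.23 in myeloid and 7.04 and 2.32 in stromal cells. Ube2c and Cdc20, which help the anaphase-promoting complex destroy cyclin B, were at 44.9 and 21.1 CPM in satellite, 13.3 and 4.26 in myeloid and 2.48 and 2.28 in stromal cells. Birc5, of the chromosomal passenger complex, was at 44.6, 14.1 and 5.74 CPM in these lineages, Cenpf at 29.2, 9.12 and 3.26, and the kinetochore motor Cenpe at 19.2, 9.53 and 2.63. Of these genes Kif11, Hmmr, Cdc20, Birc5 and Cenpf had no UMI in Schwann cells, and Tpx2, Nusap1, Ube2c and Cenpe had 1 or 2.

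Cenpa and Prc1 departed from this order. Cenpa, the centromeric histone, was at 41.7 CPM in myeloid (40.2 to 43.1), 36.1 in endothelial, 35.3 in satellite, 22.4 in Schwann (13.1 to 35.9) and 3.77 in stromal cells (3.06 to 4.61). Of the neighbours in this order only Schwann and stromal cells differed beyond counting error, and their log2 ratio cells was 2.57 (1.73 to 3.33). Prc1, which bundles microtubules of the central spindle, was highest in Schwann cells, at 59.4 CPM (43.3 to 79.5), with 37.3 in satellite, 11.1 in endothelial, 9.62 in myeloid and 6.41 in stromal cells. In Schwann cells its 45 UMIs came from 27 of 78 cells, with at most 7 in 1 cell, and the log2 ratio to satellite cells was 0.67 (0.13 to 1.20). The gene overlaps Rccd1 on the opposite strand in the GENCODE annotation, and how strand was used in counting is not given in the sources used here. Such an overlap was found for 25 of the 40 members, though not for Cenpa, and its part in the Prc1 level was not tested. Without Prc1 and Cenpa, the G2/M members summed to 22.4 CPM in Schwann cells (13.1 to 35.9, 17 UMIs), compared with 61.2 in stromal, 207 in myeloid, 442 in satellite and 13.3 in mural cells.

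**Figure D3:**
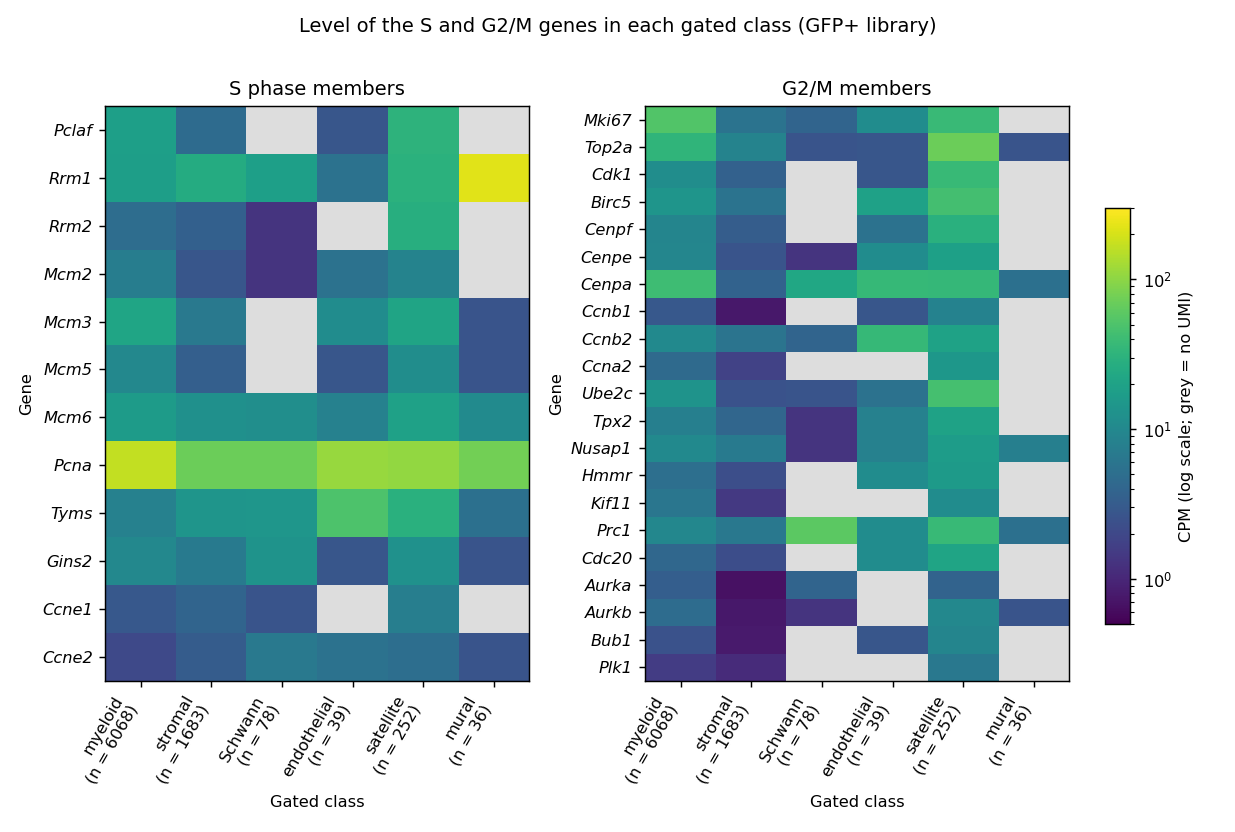
Colour gives the level of each S and G2/M member (rows) in CPM on a log scale in each gated class (columns, with the number of cells), and grey means that no UMI was found. In the G2/M panel the satellite column is the brightest for most genes, the Schwann column is grey for 10 of 21 genes with Prc1 and Cenpa bright, and the mural column is grey for 16.

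Satellite cells had the highest CPM of the 5 lineages for 16 of the 21 G2/M members, and for 11 of these the interval of the log2 ratio to the next lineage lay above 0 (Top2a, Cdk1, Birc5, Cenpf, Ccnb1, Ccna2, Ube2c, Nusap1, Kif11, Aurkb and Plk1). They were also highest for 7 of the 12 S members, of which Pclaf, Rrm2 and Ccne1 stood above the next lineage. Among genes with a mean of at least 5 CPM over the other 4 lineages, so that none passed through satellite cells, these were highest for 6 of 10 G2/M and 3 of 7 S members, against 12.3% of all genes, and above the next lineage for 4 and 1, against 5.43%. These intervals treat UMIs as independent, while in satellite cells the G2/M UMIs were held by few cells. Of 1340 such UMIs, 384, 272, 196 and 186 came from 4 cells, and the deepest of these 4 held 81075 UMIs in all. The 12 marked cells were 4.76% of satellite cells and held 11.1% of their UMIs. The summed G2/M level was 515 CPM in satellite (487 to 543), 258 in myeloid, 186 in endothelial, 104 in Schwann, 71.4 in stromal and 24.0 CPM in mural cells, and in satellite cells with at least 10000 UMIs it was 900.2 CPM. In endothelial cells 50 of the 67 G2/M UMIs lay in 1 cell.

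The members were then counted past a 2-fold difference from stromal cells, among genes with a mean of at least 5 CPM over the compared pair, and all 4 comparisons share the stromal cells. In myeloid cells 14 of the 28 members tested were higher, against 17.6% of all genes tested, and 2 were lower (Ccnd2 and Cdkn1c), against 23.3%. The higher ones were 5 S members (Pclaf, Mcm2, Mcm3, Mcm5 and Pcna), 8 G2/M members (Mki67, Top2a, Cdk1, Birc5, Cenpf, Cenpe, Cenpa and Ube2c) and Cdkn1a. In satellite cells 26 of 36 were higher, against 10.4% of all genes, and 2 were lower (Ccnd2 and Cdkn1c), against 21.7%. Many of these calls were fixed by the filter, since a gene that passes it with under 3.33 CPM in stromal cells must be over 2-fold higher. The same holds for lower calls, as of Ccnd2 in satellite cells. Of the 18 higher G2/M members in satellite cells 9 passed in this way. The other 9 were not bound to differ (Mki67, Top2a, Cdk1, Birc5, Cenpa, Ccnb2, Tpx2, Nusap1 and Prc1). In myeloid cells 9 G2/M members were not bound to differ, of which 5 were higher (Mki67, Top2a, Cdk1, Birc5 and Cenpa). The share among all genes not so bound was not counted, so the percentages above are no matching background for these members.

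In Schwann cells only 15 members were tested, of which 4 were higher (Cenpa, Prc1, Ccnd1 and Cdkn2c), against 23.3% of all genes, and 4 were lower (Top2a, Ccnd2, Ccnd3 and Cdkn1c), against 16.2%, where Top2a was fixed by the filter. With 15 members tested, these counts set the members little apart from all genes. In endothelial cells 8 of 23 were higher (Tyms, Birc5, Cenpe, Cenpa, Ccnb2, Hmmr, Cdc20 and Ccnd1), against 21.2%, and 2 were lower (Rrm1 and Top2a), against 17.4%. The filter had fixed Top2a among the lower and 3 of the 8 higher ones (Cenpe, Hmmr and Cdc20). For 5 of the 6 G2/M members among the 8 most UMIs came from the 1 marked cell, with 6 of 7 for Birc5, 13 of 13 for Ccnb2, 9 of 13 for Cenpa and all 4 for Cenpe and Hmmr.

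The D-type cyclins, which tie the cycle to growth signals, divided the lineages in another way. Ccnd1 was highest in Schwann cells, at 173 CPM (145 to 205), and in endothelial cells, at 158 CPM (120 to 205), which did not differ beyond counting error. Their order turned with the processing. Endothelial cells came first with no mitochondrial filter (179 against 174 CPM) and without the highest Scrublet scores (167 against 152 CPM), and with at least 10000 UMIs they came after Schwann (229) and satellite cells (157), at 112 CPM. Over all depths satellite cells had 119 CPM (106 to 133), myeloid cells 59.9 (58.2 to 61.6), stromal cells 43.5 (41.0 to 46.2) and mural cells 21.3. The lineage with no marked cell was thus among the highest in Ccnd1. The log2 ratio of Schwann to stromal cells was 1.99 (1.72 to 2.25) and to myeloid cells 1.53 (1.27 to 1.78). Ccnd1 UMIs were found in 44.9% of Schwann cells, or 37.2% after thinning, at most 20 in 1 cell, against 11.1% of mural cells after thinning. Dendritic-like myeloid cells had 38.3% after thinning. No Ccnd1 UMI was held by 43 of 78 Schwann and 19 of 39 endothelial cells, and 8 Schwann cells held 58.0% of the Schwann UMIs.

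Ccnd2 and Ccnd3 were arranged differently. Ccnd2 was at 117 CPM in stromal cells (113 to 121), 69.4 in endothelial, 37.0 in Schwann (18.2 without the highest Scrublet scores), 19.5 in myeloid and 2.30 in satellite cells (0.846 to 5.02, 6 UMIs), and at 506 CPM in mural cells (437 to 583). Satellite cells were thus below stromal cells by a log2 ratio of -5.67 (-7.11 to -4.54). Ccnd3 was at 151 CPM in satellite (137 to 167), 131 in myeloid (128 to 133), 95.3 in stromal (91.5 to 99.2), 74.9 in endothelial and 27.7 in Schwann cells (17.2 to 42.4). Satellite cells, the highest in Ccnd3, were thus the lowest in Ccnd2, and Schwann cells, among the highest in Ccnd1, were the lowest in Ccnd3. Between stromal and endothelial cells Ccnd3 did not differ beyond counting error.

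Of the CDK inhibitors, Cdkn1a (p21), a target of p53, was at 419 CPM in myeloid (414 to 423), 358 in endothelial (299 to 425), 190 in stromal (184 to 195), 154 in satellite (139 to 170) and 123 in Schwann cells (99.1 to 150), and at 852 CPM in mural cells. Myeloid and endothelial cells did not differ beyond counting error, and neither did satellite and Schwann cells. Cdkn1b (p27), which holds resting cells out of cycle, was highest in Schwann cells, at 99.0 CPM (77.9 to 124), and lay between 54.5 and 68.5 CPM in the other 4 lineages. The log2 ratio of Schwann to myeloid cells was 0.53 (0.18 to 0.86). Cdkn1c (p57) was at 98.7 CPM in stromal (94.9 to 103), 74.9 in endothelial, 38.3 in Schwann, 21.9 in satellite and 12.6 in myeloid cells (11.8 to 13.4). Cdkn2c (p18), an inhibitor of CDK4 and CDK6, was at 38.4 CPM in satellite, 34.3 in Schwann, 20.3 in myeloid, 16.6 in endothelial and 11.1 in stromal cells, and the first pair did not differ beyond counting error.

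**Figure D4:**
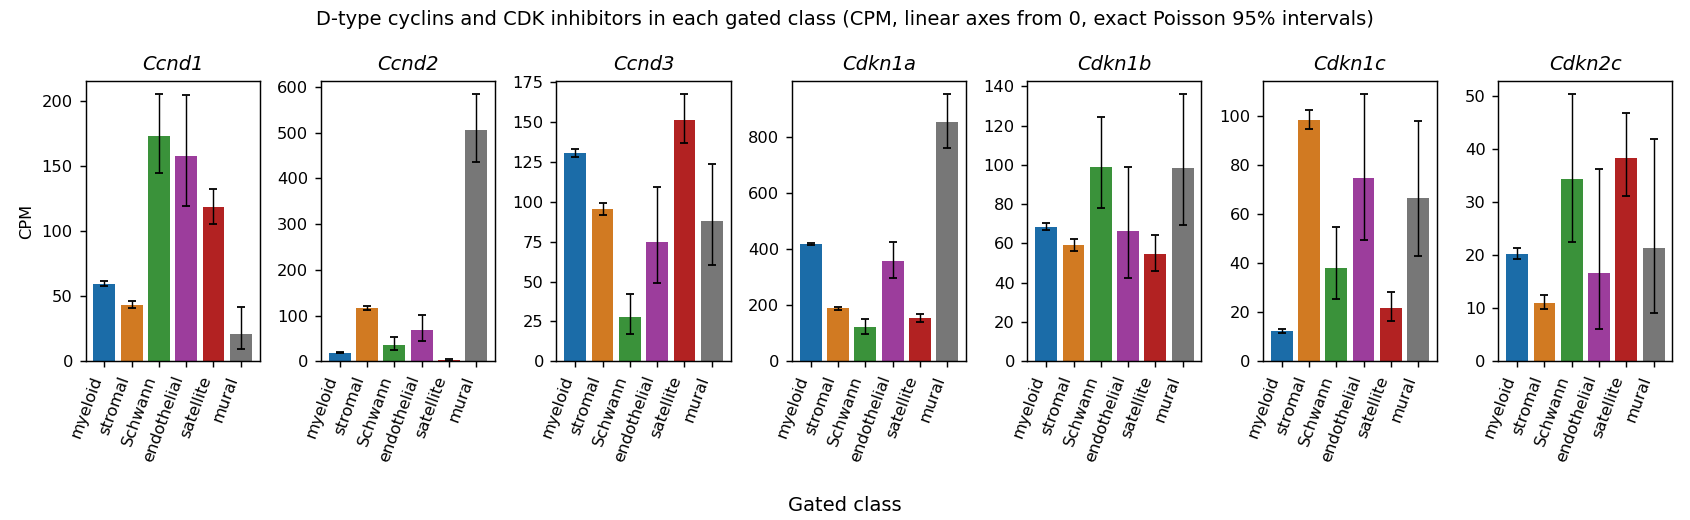
Bars give CPM of the 3 D-type cyclins and 4 CDK inhibitors in each gated class on linear axes that start at 0, each gene with its own axis, and lines give exact Poisson 95% intervals. Ccnd1 is tallest in Schwann (173) and endothelial cells (158), Ccnd2 and Cdkn1a in mural cells, and Ccnd2 is nearly absent from satellite cells (2.30).

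Within the myeloid lineage the 4 groups of cells (unmarked, S only, both marks, G2/M only) gave the order of the members along the cycle. The S and G2/M members define these groups, so their levels are a description. Mcm3 was at 16.4 CPM in unmarked, 197 in S-only, 159 in both and 29.7 in G2/M-only cells, and Mcm2, Mcm5, Mcm6 and Gins2 were also highest in S-only cells. The other 7 S members peaked in cells with both marks. Pclaf was at 1.27, 202, 654 and 223 CPM across the 4 groups, and Rrm2 at 0.76, 45.3, 202 and 18.0. Ccne2 was at 0.87, 22.6 and 55.9 CPM in the first 3 groups and had no UMI in the 66 G2/M-only cells, nor had Ccne1.

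Of the 21 G2/M members 17 were highest in G2/M-only cells and 4 (Top2a, Cdk1, Aurkb and Bub1) in cells with both marks. Top2a was at 6.84, 107, 779 and 715 CPM and Mki67 at 30.7, 125, 586 and 702 CPM, both already above unmarked cells in S-only cells. By contrast Cenpf was at 0.85, 3.94, 102 and 394 CPM, Ube2c at 1.13, 8.86, 153 and 576 CPM, and Hmmr and Plk1 had no UMI in S-only cells. Cenpa was at 34.7 CPM in unmarked and 21.7 in S-only cells before 112 and 387 CPM. Cenpa was thus lower in S-only (13.6 to 32.8) than in unmarked cells (33.3 to 36.0), and higher in the other 2 groups.

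**Figure D5:**
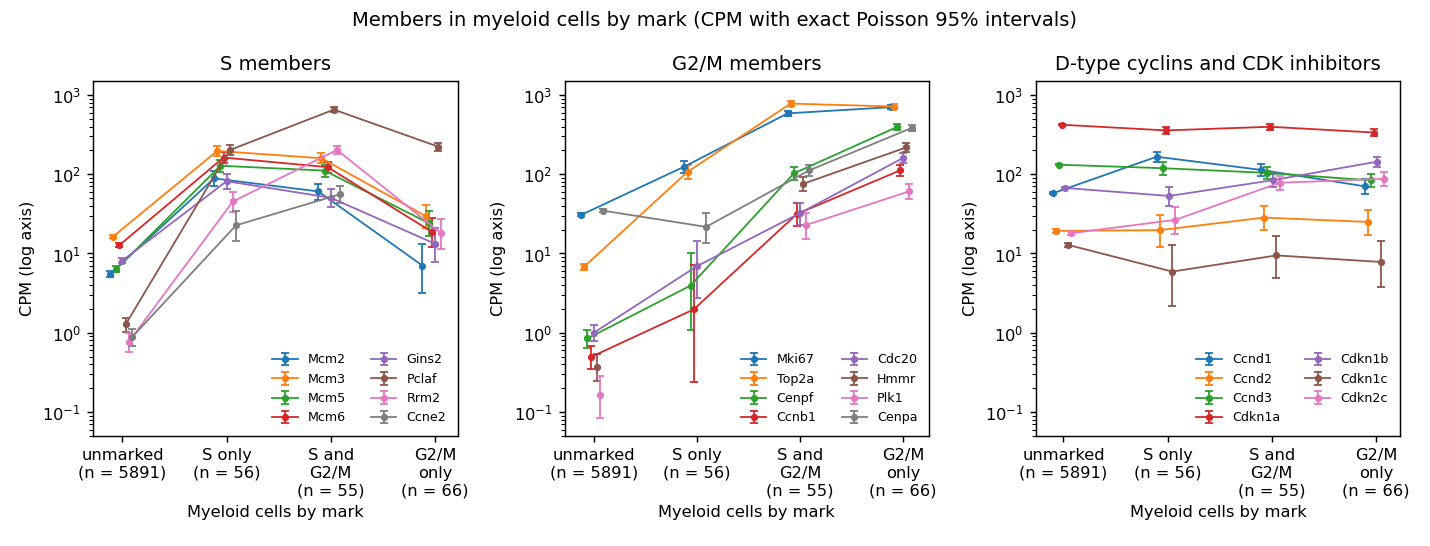
Lines join the CPM of 1 gene (log axis, exact Poisson 95% intervals) over the 4 groups of myeloid cells, for S members, G2/M members and the D-type cyclins and CDK inhibitors. Points with no UMI are left out. S members peak in S-only cells or in cells with both marks, most G2/M members in G2/M-only cells, and in the right panel Ccnd1 is highest in S-only cells (166) while Cdkn1b and Cdkn2c are highest in G2/M-only cells (144 and 87.5).

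The D-type cyclins and the inhibitors took no part in the marks. Ccnd1 was at 57.3 CPM in unmarked myeloid cells, 166 in S-only, 113 in both and 70.3 in G2/M-only cells, and over all marked cells its log2 ratio to unmarked cells was 0.98 (0.83 to 1.13). This ratio pooled subsets of cells that differ in level and in marks. Within cells like resident macrophages it was 1.24 (1.04 to 1.44), in cells of no subset 0.07 (-0.35 to 0.47), and within dendritic-like cells it turned to -0.53 (-0.84 to -0.24). S-only cells had the most Ccnd1 in resident-like cells (209 CPM) and cells of no subset (136 CPM). In dendritic-like cells unmarked cells had the most (131 CPM), against 117 in S-only, 98.7 in both and 72.4 in G2/M-only cells. Cdkn2c was at 18.0, 26.6, 78.0 and 87.5 CPM, a log2 ratio of 1.89 (1.68 to 2.09), and was the only 1 of these 7 genes past 2-fold in the pooled cells. Its log2 ratio was 2.57 (1.81 to 3.36) within dendritic-like cells, 1.72 (1.44 to 1.98) within resident-like cells and 2.89 (2.45 to 3.31) in cells of no subset. Cdkn1b was at 67.2, 53.1, 84.3 and 144 CPM, lowest in S-only and highest in G2/M-only cells. S-only cells were also lowest and G2/M-only cells highest within dendritic-like cells (169, 58.6, 140 and 199 CPM) and resident-like cells (51.7, 32.5, 40.7 and 59.2 CPM). In the myeloid cells of no subset (75.6, 88.9, 55.5 and 137 CPM) cells with both marks were lowest. No intervals were taken for these groups, so an order beyond counting error was not shown within the subsets. The ratio of all marked to unmarked cells had an interval that held 0 in all 3, at -0.16 (-0.40 to 0.07) in dendritic-like and -0.27 (-0.66 to 0.10) in resident-like cells, and was 0.33 (-0.02 to 0.66) in cells of no subset, against 0.53 in the pooled cells. Over all myeloid cells Cdkn1a was at 364 CPM in marked and 421 in unmarked cells, a log2 ratio of -0.21 (-0.29 to -0.13), but within dendritic-like (293 against 273) and resident-like cells (390 against 381) the interval of the ratio held 0, and in cells of no subset it was -0.26 (-0.42 to -0.11). Ccnd2 had a pooled ratio of 0.36 (0.03 to 0.67), with -1.17 (-1.79 to -0.60) in dendritic-like cells (23.2 against 52.2 CPM) and intervals that held 0 in the other subsets. Ccnd3 had a pooled ratio of -0.39 (-0.54 to -0.23), with -0.94 (-1.21 to -0.69) in resident-like cells, -0.20 (-0.52 to 0.11) in cells of no subset and -0.09 (-0.38 to 0.20) in dendritic-like cells. Cdkn1a RNA was thus present in marked and unmarked myeloid cells alike.

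In satellite cells the same genes gave wider intervals. Ccnd1 was at 389 CPM in the 12 marked and 85.1 CPM in the 240 unmarked cells, a log2 ratio of 2.19 (1.84 to 2.53), of which 1 cell gave 56 UMIs. Cdkn2c was higher in marked cells here too, by 1.85 (1.19 to 2.48), and also in stromal cells, by 3.45 (2.89 to 3.96). Cdkn1b ran the other way, at 20.8 against 58.7 CPM, with a log2 ratio of -1.50 (-2.97 to -0.34). Of the 8 gate markers detected in satellite cells, Pax7, Chodl, Cdh15 and Msc were lower in marked cells with intervals that did not overlap, while those of Myf5, Megf10, Fgfr4 and Myod1 overlapped. Pax7, the factor that marks satellite cells, was at 59.0 CPM in marked and 274 CPM in unmarked cells, Chodl at 125 and 583, and Calcr, a gene of resting satellite cells outside the gate, at 3.47 (1 UMI) and 124. Myod1, the factor of activated myoblasts, was at 177 CPM (132 to 233) and 126 CPM (112 to 141), and Myog, of differentiating myoblasts, had no UMI in either.

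How far a gene's RNA was confined to marked cells differed between members. The G2/M members make the G2/M mark and so are bound to gather in marked cells, which makes these shares a description. In satellite cells marked cells held at least 90% of the UMIs of 18 of 21 G2/M members, and 5 of these (Ccnb1, Hmmr, Aurkb, Bub1 and Plk1) had no UMI in the 240 unmarked cells. In myeloid cells 14 of 21 had at least 75% in marked cells, and Kif11 (94.3%), Ccna2 (94.3%), Hmmr (93.3%), Ube2c (91.9%) and Cenpf (91.2%) exceeded 90%. Mki67 (44.0%), Aurka (37.4%) and Cenpa (20.6%) were under 50% there. Unmarked myeloid cells still had 30.7 CPM of Mki67 and 34.7 CPM of Cenpa. Monocyte-like cells, with no marked cell, had 30.1 CPM of Mki67 (25.1 to 35.8) and 32.2 CPM of Cenpa (27.1 to 38.1), whereas unmarked tenocyte-like stromal cells had 1.74 and 2.18 CPM. An Mki67 UMI was found in 9.09% and a Cenpa UMI in 12.6% of monocyte-like cells after thinning, although none of them was marked. When Mki67, Cenpa, Prc1 and Pcna were left out of the marks, the G2/M shares were 2.78% in satellite, 1.85% in myeloid and 0.535% in stromal cells.

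Marks were uneven among myeloid cells, which were divided by further markers. Dendritic-like cells (Flt3, Cd209a, Xcr1 and others) had 48 marked of 358 (13.4%, 10.1 to 17.4%), and 37 of these carried the G2/M mark. Cells like resident macrophages (Lyve1, Folr2 and others) had 80 of 3237 (2.47%, 1.96 to 3.07%). Cells like lipid-handling macrophages (Gpnmb, Fabp5 and others) had 1 of 549 (0.182%, 0.00461 to 1.01%) and monocyte-like cells (Ly6c2, Chil3 and others) 0 of 396, which allows a share of up to 0.758% by the limit of 3 counts (0.927% by the exact interval). The median depths were 14607.5, 11291, 17035 and 10178 UMIs, so the deepest subset was among the least marked. The 1341 myeloid cells of no subset had 44 marked (3.28%). Ccnd1 was likewise highest in the dendritic-like cells, at 122 CPM (114 to 132), with 68.7 in resident-like macrophages, 12.5 in lipid-like macrophages and 10.9 in monocyte-like cells, and was at 131 CPM in the unmarked dendritic-like cells. Cdkn1a ran the other way over the named subsets, at 277 CPM in dendritic-like cells, 381 in resident-like and 419 in lipid-like macrophages and 588 in monocyte-like cells. The cells of no subset departed from this, at 514 CPM with 3.28% marked.

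In stromal cells the tenocyte-like subset (Tnmd, Fmod and others) had 4 marked of 380, all of them S only, the adventitial-like subset (Pi16 and others) 4 of 397 and the parenchymal-like subset (Smoc2 and others) 2 of 575, intervals that overlap. Unmarked tenocyte-like cells had 195 CPM of Cdkn1c (182 to 208) and 160 of Ccnd2, against 80.5 and 119 CPM in adventitial-like and 69.1 and 99.1 CPM in parenchymal-like cells. Cdkn1a was lowest in unmarked tenocyte-like cells, at 95.4 CPM, with 275 in adventitial-like and 162 in parenchymal-like cells. Cdkn1a thus differed between all these stromal subsets beyond counting error, and Cdkn1c between tenocyte-like cells and the others. Cdkn1b, Cdkn1c and Cdkn2c had overlapping intervals in adventitial-like and parenchymal-like cells. A difference in marks was not detectable with these numbers of cells.

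Other genes of the same phases, which took no part in the marks, were then read in marked and unmarked myeloid cells. Of 33 other S-phase genes 30 were tested and 27 were at least 2-fold higher in marked cells, against 9.04% of all genes tested, and none was lower, against 4.46%. Of 36 other G2/M genes 34 were tested and 32 were higher. The filter had fixed 9 and 15 of these calls, through genes under 3.33 CPM in unmarked cells, and of the genes not so bound 18 of 21 and 17 of 19 were higher. The share among all genes not so bound was not counted, so 9.04% is not a matching background for these. Their summed levels were 1902 against 456 CPM for the S-phase genes and 5319 against 932 CPM for the G2/M genes. Across the 4 groups of myeloid cells, 9 of the 33 other S-phase genes were highest in S-only cells, 24 in cells with both marks and 0 in G2/M-only cells, while 26 of the 36 other G2/M genes were highest in G2/M-only cells, 10 in cells with both and 0 in S-only cells. The 3 most abundant of each list were taken over all cells of all lineages, and their levels in marked against unmarked myeloid cells follow. They were Pola1, a subunit of DNA polymerase alpha, at 204 against 31.7 CPM, Nasp, a histone chaperone, at 208 against 150, and Slbp, which binds histone RNA, at 106 against 55.9. Those of G2/M were Hmgb2, a chromatin protein, at 1757 against 199, Anp32e at 289 against 82.9 and Jpt1 at 338 against 205 CPM.

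In the smaller lineages only the sums were compared. The other G2/M genes summed to 5577 against 650 CPM in marked and unmarked satellite cells and 4162 against 608 CPM in stromal cells, and to 1063 CPM in Schwann cells and 658 CPM in the 35 unmarked mural cells. Schwann cells were thus above unmarked satellite and stromal cells in this sum without any marked cell. Of 16 of these genes tested against stromal cells 7 were higher (Tmpo, Rangap1, Ncapd2, Ckap5, G2e3, Gas2l3 and Anp32e), against 23.3% of all genes, and 1 was lower (Cks1b), against 16.2%. Among 24 regulators of the cycle, 13 of 21 tested were higher in marked myeloid cells (4 of them fixed by the filter), against 9.04% of all genes, and Cdk6, Rb1 and Myc, the most abundant of them over all cells though not in myeloid cells for Myc, were not past 2-fold (163 and 156, 96.4 and 84.1, 15.5 and 15.7 CPM in unmarked and marked cells). Of 9 targets of p53, none of 7 tested was higher and 1 was lower, against 4.46% of all genes. This was Gdf15, at 150 against 413 CPM, a log2 ratio of -1.46 (-1.58 to -1.33). The ratio was -1.87 (-2.22 to -1.53) in cells of no subset and -0.37 (-0.52 to -0.22) within resident-like cells. Within dendritic-like cells it was 2.25 (1.77 to 2.73), which came from G2/M-only cells, at 141 CPM. Unmarked, S-only and both-mark dendritic-like cells had 14.8, 16.7 and 7.22 CPM. Bax (158 against 170) and Mdm2 (125 against 143) differed little. In satellite cells Cdk6 was at 219 CPM in marked and 28.1 in unmarked cells, and Myc at 97.2 and 277 CPM.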

How the data were processed

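Viable GFP+ cells were sorted from dissociated muscle, and the authors made a 3' droplet library, aligned it and deposited counts of UMIs per gene and barcode, as unfiltered whole numbers. The file header names Cell Ranger 8.0.1, the submitters' processing notes name Cell Ranger 7.1.0 and Seurat 4.30, and GRCm38, GRCm39 and mm10 are all named as genome builds, so no coordinates of the counts are given. Of the 2 libraries of the series 1 was analysed here and no column was left unmapped. The 40 members, the marker lists and the other gene lists were chosen with earlier results of these data known, and the gate levels and the 6 UMIs for a mark were set after seeing the data. Cells needed at least 5000 UMIs, over 200 genes and under 10% mitochondrial counts. A gate needed markers of at least 3 genes and, in UMIs for each 10000, at least 20 (myeloid, stromal), 8 (Schwann), 12 (endothelial, mural), 5 (satellite) or 100 (muscle fibre, erythroid). Gates for neutrophils and lymphocytes took 0 cells of their own, since the barcodes that passed them also passed others (10 and 13 with the myeloid gate), and 10 barcodes were erythroid. Subsets needed 2 genes of a further list. Barcodes in several gates were left out as possible doublets, no doublet caller entered the values, and Scrublet was run as an alternative that removed the highest 14.6% of scores. CPM is the UMIs of a class for each 1000000 of its UMIs, with exact Poisson 95% intervals, and log2 ratios have exact conditional intervals. Where a class had no UMI, 3 counts were taken as the limit. Genes named are all 40 members and the 3 most abundant of each other list. Scripts ran under Python 3.11.15 with scanpy 1.11.5 (Scrublet), scipy 1.17.1, numpy 2.4.6, matplotlib 3.10.9 and pandas 2.3.3, and were tested on simulated data.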

Additional observations from a re-analysis of the deposited data

How the results depend on the processing

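No paired analysis was possible because a single library gives no replicates and no test. The order of the G2/M shares (satellite above myeloid above stromal) was kept in 10 of 10 alternative settings, and the Schwann shares were at 0 in 24 of 24. Of the alternatives, 53 of 60 G2/M shares, 49 of 60 S shares, 17 of 25 G2/M sums and 18 of 25 S sums stayed within the interval of the value given above. With at least 10000 UMIs per cell the G2/M shares were 2.56% (myeloid) and 6.25% (satellite), the S shares 2.51% and 7.29%, the G2/M sums 296, 312 (endothelial) and 900.2 CPM (satellite) and the S sums 302 and 455 CPM. Without thinning the myeloid shares were 3.10% (G2/M) and 6.05% (S) and the stromal S share 3.09%. Thinning to 2000 UMIs gave 1.37% for the myeloid G2/M share and S shares of 0.330% (myeloid), 0.119% (stromal) and 0.397% (satellite), so the myeloid S share moved more than the G2/M share. Asking for 2 more UMIs gave a myeloid S share of 1.38%, and leaving out Mki67, Cenpa, Prc1 and Pcna, which was chosen after seeing the data, gave 1.29%. With gate levels raised 2-fold the myeloid shares were 1.37% (G2/M) and 1.40% (S), the G2/M sums 204 (myeloid) and 349 CPM (satellite) and the S sums 271 and 244 CPM. Without the highest Scrublet scores the G2/M shares were 1.62% (myeloid) and 0.132% (stromal), the stromal S share 0.331%, the G2/M sums 253 (myeloid), 32.2 (stromal) and 451 CPM (satellite) and the S sums 279, 143 and 278 CPM. The causes of these shifts were not tested. With a minimum of 20 CPM, fewer genes were tested, and the members past 2-fold against stromal cells numbered 5 of 11 higher in myeloid (18.8% of all genes), 9 of 16 higher in satellite (9.95%), 3 of 9 higher (19%) and 0 of 9 lower (15.6%) in endothelial cells. Of the D-type cyclin levels 11 of 60 left their interval, and 4 moved by over 1.5 times, Schwann Ccnd2, at 18.2 CPM without the highest Scrublet scores, Schwann Ccnd3, at 41.7 CPM with the raised gate levels, and endothelial Ccnd3 (48.7) and satellite Ccnd2 (4.27) with at least 10000 UMIs. Leaving out barcodes shared with the other library, also chosen after seeing the data, moved no share or sum beyond its interval. The numbers of cells (78, 39 and 36) limit the Schwann, endothelial and mural classes. Ratios within subsets of myeloid cells were added after seeing the data.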
